A study of Mus musculus with 6 samples.

Results

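The cytosolic ribosomal proteins are the protein building blocks of the ribosome, the particle that reads messenger RNA and joins amino acids into protein. The genes described here were chosen by symbol alone: names of the form Rpl or Rps with a number, Rplp0 to Rplp2, and Rpsa, with the ribosomal S6 kinases left out. They were counted only through probe sets that the platform annotation pairs with 1 gene, and the brightest such probe set over all 6 arrays stood for each gene. This gave 48 genes, 26 of the large subunit and 22 of the small subunit, out of 12393 genes that have such a probe set. A further 27 ribosomal protein symbols, among them Rpl3, Rpl5, Rpl10 and Rplp1, occur only on probe sets that list several genes, mostly processed copies, and get no value of their own.

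Whole pituitary glands of male C57BL/6J mice, 8 to 12 weeks old, were compared between wild type (arrays 1 to 3) and Bmal1-/- (arrays 4 to 6), a genotype label that names no allele, promoter or Cre. Arntl codes for BMAL1, which together with CLOCK drives transcription in the circadian clock. The light cycle was 12 h on and 12 h off for every mouse, and glands were taken at zeitgeber time 12, at lights off. RNA of 3 glands was pooled for each array, which makes n = 3 pools per genotype throughout. In bulk tissue, fewer cells of a type and less RNA per cell cannot be told apart.

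In mammals the ribosomal proteins are made in matched amounts, and their messenger RNAs are among the most abundant of any cell. Their mRNAs begin with a C followed by a run of pyrimidines, the terminal oligopyrimidine tract, through which the kinase mTOR and the binding protein LARP1 set how strongly they are translated. Because of this, their output is controlled largely at translation, and mRNA levels tend to move little. Endocrine cells of the anterior pituitary, which secrete large amounts of a few protein hormones, rely on a high rate of protein synthesis.

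Markers of the cells in the gland moved too. All 7 anterior lobe hormone subunits listed were tested, and 2, Gh and Cga, fell. The summed intensity of all 7 was 61039 to 69434 over the wild-type arrays and 55220 to 58054 over the Bmal1-/- arrays. The sums in brackets below likewise cover every tested marker of a list, wild type first. Of 7 tested macrophage and leukocyte markers C1qa fell (sums 513 to 541 and 369 to 412). Of 8 endothelial and pericyte markers Plvap rose and Rgs5 fell (1199 to 1442 and 1088 to 1172). Rgs5 alone went from a mean of 684 to 392 and makes up much of these sums, and 4 of the 8 log2 differences were below 0. Aldh1a2 rose among 7 folliculostellate and stem cell markers (651 to 839 and 867 to 933). Aldh1a2 alone went from a mean of 325 to 488 and makes up much of these sums, and 2 of the 7 log2 differences were below 0. The myelin gene Mbp rose among 2 posterior lobe markers (198 to 291 and 229 to 246), with a log2 difference of 0.52. Oxt, the other posterior lobe marker, pointed the other way without overlap and without passing (-0.57, limma adjusted p = 0.0565). The 6 markers of dividing cells (572 to 660 and 631 to 714) and the only tested red cell marker, Alas2, held no call. The part of these shifts in the ribosomal protein values was not tested. Arntl itself read 39.6, 51.7 and 38.6 in wild type and 112.1, 102 and 127.5 on the arrays labelled Bmal1-/-, a rise (log2 difference 1.13, SE 0.14, limma adjusted p = 0.000653). The sources used here do not say whether its probe set lies in the deleted part, so every direction below refers to the arrays as labelled. Median intensities of all probe sets ran from 33.5 to 34.3 on wild-type arrays, and from 31.7 to 32.2 on Bmal1-/- arrays, and the Gapdh and Actb 3'/5' signal ratios, a measure of RNA integrity, overlapped between genotypes.

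The ribosomal protein genes differed little between the genotypes. Of the 48, 46 were bright enough to be tested, and 2 of these, Rpl37 and Rpl37a, fell at an adjusted p under 0.05 in limma, a share of 4.35%. None rose. Over all 8033 tested genes, 5.68% passed, with 2.68% lower and 3% higher in Bmal1-/-, so the share among the ribosomal proteins was near the background. The 2 untested members, Rpl39l and Rpl3l, are paralogues of Rpl39 and Rpl3 whose signals stayed at or below 9.3 and 6.8 on every array. At an unadjusted p under 0.05 there were 16 of 46 members (34.8%), 12 lower and 4 higher, against 21.5% of all tested genes.

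**Figure D1:**
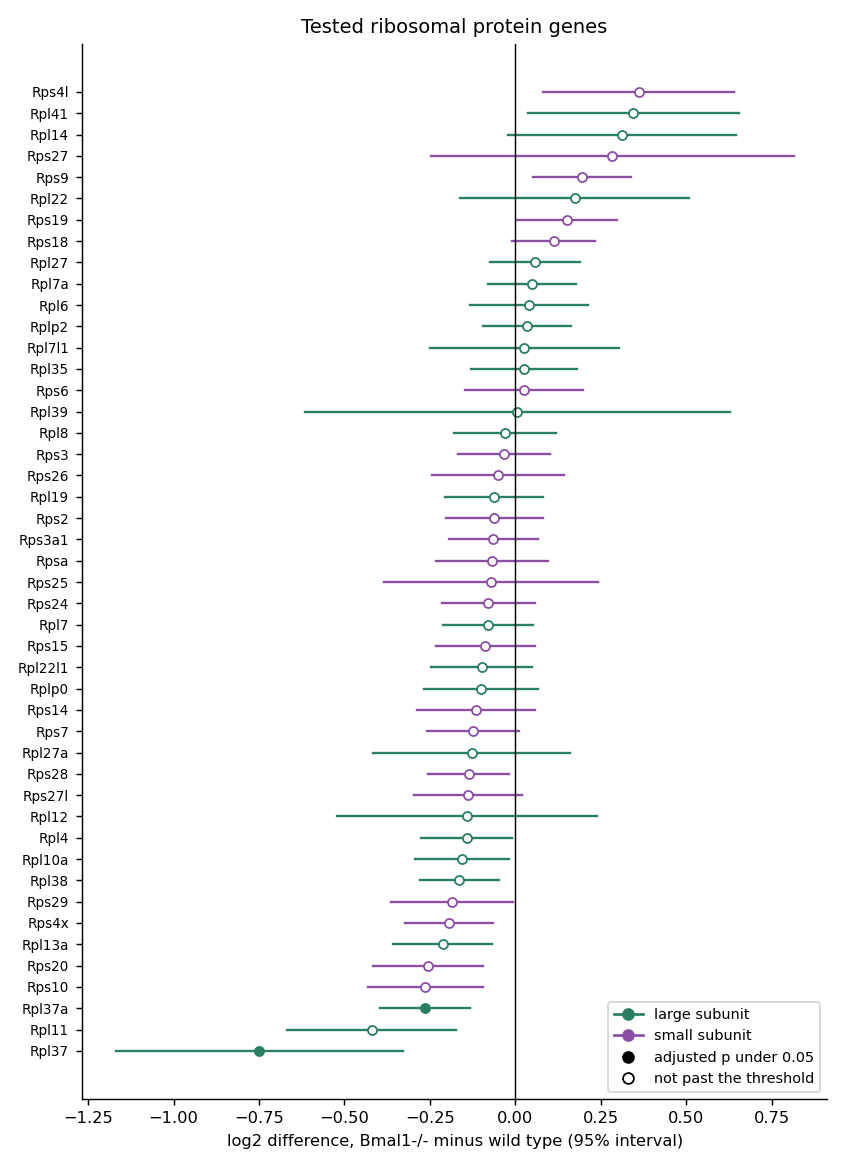
Log2 difference, Bmal1-/- minus wild type, for each of the 46 tested ribosomal protein genes, sorted, with 95% intervals from limma; green is the large and purple the small subunit, and filled points passed an adjusted p of 0.05. Only Rpl37 and Rpl37a are filled, and 30 of the 46 points lie below 0.

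The bounds on the differences were narrow. For 39 of the 46 genes the 95% interval of the difference lay within 1.5-fold in either direction. Rpl37 alone had an estimate beyond 1.5-fold, 2.17% of members against 3.22% of all tested genes. Mean intensity over the 6 arrays exceeded 1000 for 34 members. Those 34 had SEs of 0.05 to 0.14 on the log2 scale, and the 6 tested members under an intensity of 100 had SEs of 0.13 to 0.29. Rpl12, Rpl14, Rpl27a, Rpl39, Rps25 and Rps27 make up that dim group, and for them a difference of moderate size was not detectable at this signal. Dim and bright here describe probe sets, not transcripts, because the intensity of a probe set depends on its probes.

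The members as a group leaned slightly downward. The median log2 difference was -0.07 (quartiles -0.14 and 0.03), and 30 of 46 were below 0, while all tested genes had a median of -0.00032 with 50.1% below 0. Other tested genes in the same range of brightness, between intensities of 48.5 and 5500, numbered 6052 and had a median of 0.01. Most of these were dimmer than most members. Among genes with a mean intensity over 1000, the 34 ribosomal proteins had a median of -0.08 with 25 below 0, and the 258 others a median of -0.01 with 135 below 0. The lean depended on how the arrays were scaled: after quantile normalization the members' median was -4.23e-05 with 23 below 0, and after cyclic loess, which evens out differences that follow brightness, it was -0.025. The median was -0.07 for the 24 large subunit genes, of which 14 were below 0, and -0.07 for the 22 small subunit genes, of which 16 were, and the difference between the subunits was not tested.

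**Figure D2:**
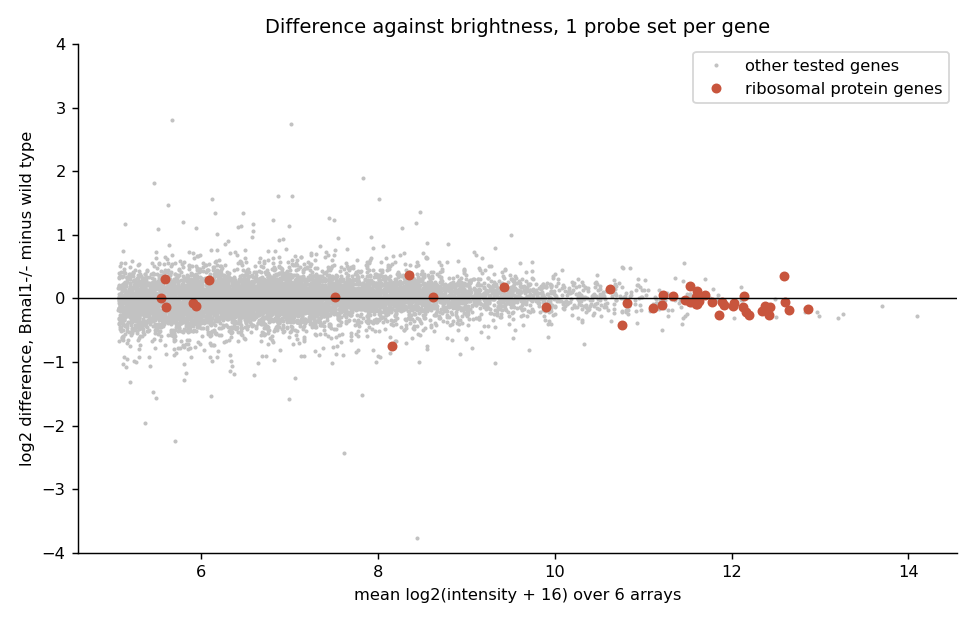
Log2 difference, Bmal1-/- minus wild type, against mean log2(intensity + 16) over 6 arrays for each tested gene (1 probe set per gene); red points are the 46 ribosomal proteins. Most red points sit at the bright end and just below 0, at a median of -0.07, within the spread of the grey points around them.

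Array by array, on values without further scaling, the medians of the bright members were separated by genotype. They are not given here for other scalings. For the 34 members over an intensity of 1000, the median deviation from a gene's 6-array mean was 0.08, 0.02 and 0.07 on wild-type arrays 1, 2 and 3. It was -0.01, -0.03 and -0.07 on Bmal1-/- arrays 4, 5 and 6. The genotypes did not overlap, but wild-type array 2 lay closer to Bmal1-/- array 4 than to the other wild-type arrays. The 258 other genes of that brightness gave 0.03, -0.02 and 0.02 in wild type and -0.0044, -0.0044 and -0.00027 in Bmal1-/-, so array 2 was the lowest wild-type array there as well. Within a genotype, the members over an intensity of 1000 had a median SD of 0.07 on the log2 scale, and the others of that brightness 0.09.

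**Figure D3:**
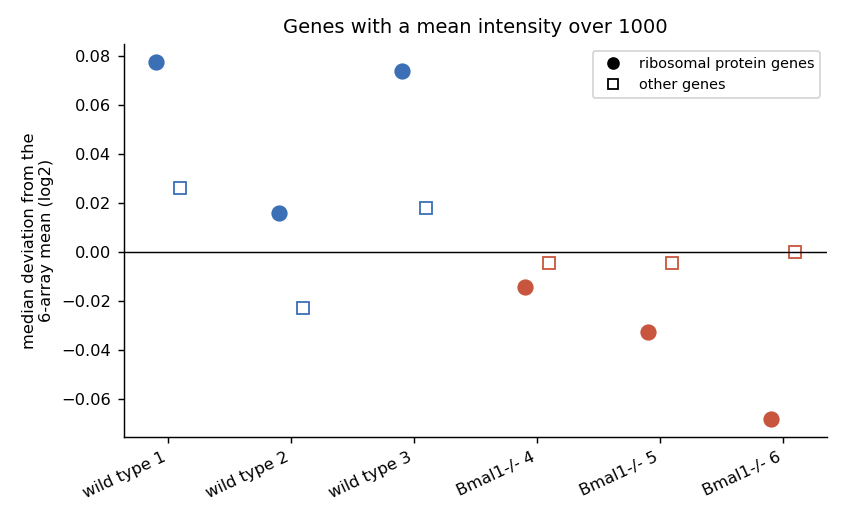
Median deviation from each gene's 6-array mean (log2) on each array, over genes with a mean intensity above 1000: filled circles are the 34 ribosomal proteins, open squares the 258 other genes, blue is wild type and red Bmal1-/-. The circles run from 0.08 on wild-type array 1 to -0.07 on Bmal1-/- array 6, with wild-type array 2 at 0.02.

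The groups did not overlap, with every Bmal1-/- array lower, at 12 members (26.1%), against 12.7% of all tested genes. At 4 members (8.70%) every Bmal1-/- array was higher, against 13.7%. These counts were not taken again under other scalings.

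Rpl37 and Rpl37a encode zinc-binding proteins of the large subunit, which share a name but are separate proteins. Rpl37 read 348.9, 247.1 and 516.7 in wild type and 214, 181.7 and 220.9 in Bmal1-/-. The wild-type arrays were widely spread, and the lowest of them, array 2, was just above the highest Bmal1-/- array. The mean fell from 371 ± 136 (SD, n = 3) to 206 ± 20.9, a log2 difference of -0.75 (SE 0.19, limma adjusted p = 0.0441). Omitting wild-type replicate 2 kept the call (0.00333), and omitting any of the other 5 arrays ended it (adjusted p 0.0842 to 0.139, with a difference of -0.49 without replicate 3). So did quantile normalization (0.0535), robust eBayes (0.0901), a fit without the intensity trend (0.115) and no filter on low values (0.125).

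Rpl37a read 5057.3, 5333.5 and 4943.4 in wild type and 4265.1, 4424.1 and 4076.4 in Bmal1-/-. The genotypes were clearly separated on this probe set. The mean fell from 5111 ± 201 to 4255 ± 174, a log2 difference of -0.26 (SE 0.06, limma adjusted p = 0.0267). The next brightest Rpl37a probe set read 4304.3, 4276.6 and 3962.9 in wild type and 3992.5, 4330.6 and 4186.6 in Bmal1-/-, with overlap and a log2 difference of -0.0037 (SE 0.06, adjusted p = 0.984). The third, dim at 81.6, 122.6 and 37.7 against 162.9, 134.8 and 104.8, had a log2 difference of 0.72 (SE 0.27, adjusted p = 0.144). The level of the brightest set relative to the next, as a log2 difference within an array, was 0.23, 0.32 and 0.32 in wild type and 0.09, 0.03 and -0.04 in Bmal1-/-. The call of the brightest set was lost under cyclic loess (0.0813), quantile normalization (0.136), no filter (0.0907) and no trend (0.169). Omitting wild-type replicate 2 kept it (0.0423), and omitting any of the other 5 arrays ended it (0.0507 to 0.109).

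**Figure D4:**
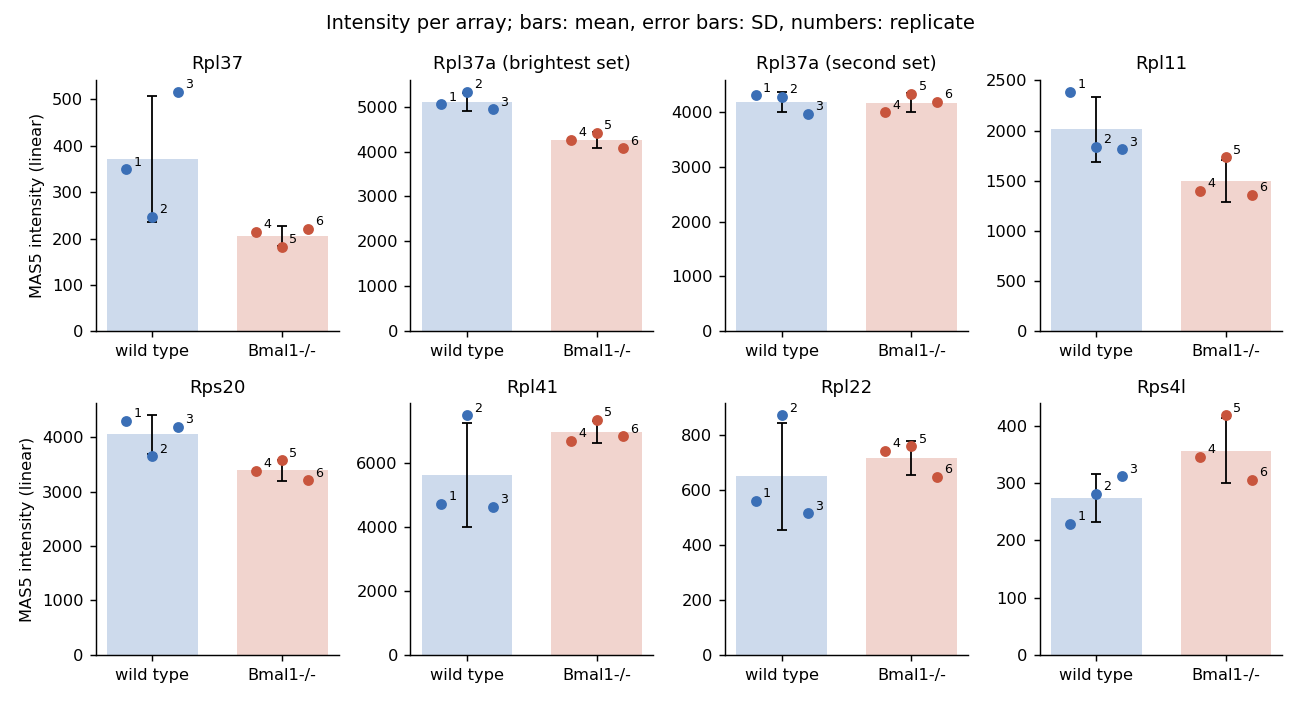
MAS5 intensity on a linear scale for 7 ribosomal protein genes, 1 panel per probe set, with a point per array labelled by its replicate number, bars for means and error bars for SD (n = 3 per genotype). Both Rpl37a panels come from 1 gene: the brightest set separates the genotypes and the second does not, and wild-type array 2 lies above all 3 Bmal1-/- arrays for Rpl41 and Rpl22.

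Both calls rested on probe sets with the suffix _x_at, which marks sets that hold probes identical or nearly identical to other sequences. For genes with many processed copies, as ribosomal proteins have, such a set can read more than its own gene. Among all 85 tested probe sets of the members, 38 carried that suffix, and both calls fell among them. The 27 with the suffix _a_at and the 18 with a plain _at had none. Their medians were -0.08, -0.03 and -0.06. Over all tested probe sets, of any suffix, 5.54% were called. The share for sets with the suffix _x_at beyond the members is not given here. Whether the suffix bears on both calls was not tested. Of the 102 probe sets that list a ribosomal protein beside other genes, 89 were tested, 7 were lower and 1 higher, with a median log2 difference of -0.08. That is 8.99% called, against 5.54% of all tested probe sets.

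Probe sets of 1 gene gave different values. Of the 19 members with more than 1 tested probe set, 12 had sets on both sides of 0, and the median range between the sets of a gene was 0.28 on the log2 scale. A few of the sets beside the brightest were dim, with larger SEs, but others were bright. The other tested Rps9 set, for example, had a mean of 1307 ± 219 in wild type and an SE of 0.13. Neither the range nor the signs were tested. Rpl37a spanned 0.99, Rps10 0.76 and Rps9 0.54. Rps20, Rps28 and Rps15 had the narrowest ranges, 0.02, 0.06 and 0.07. A gene with a single probe set, as 25 of the 48 members have, offers no such comparison.

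**Figure D5:**
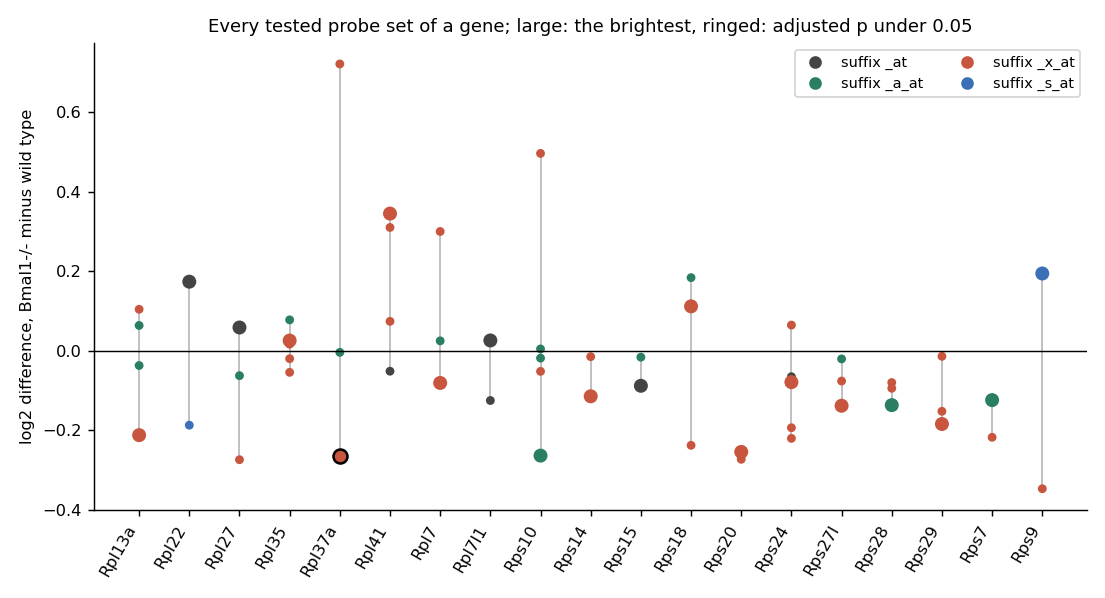
Log2 difference, Bmal1-/- minus wild type, of every tested probe set of the 19 members with more than 1; colour gives the probe set suffix, large points are the brightest set of a gene and the ringed point passed an adjusted p of 0.05. For 12 of the 19 genes the points lie on both sides of 0, and Rpl37a has the longest line, 0.99.

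The members that came next below the threshold were all bright. Rpl11, a large subunit protein that also binds the p53 inhibitor MDM2 when free of the ribosome, read 2386.9, 1839.7 and 1811.5 in wild type and 1400.4, 1733.2 and 1357.9 in Bmal1-/-. Its log2 difference was -0.42 (SE 0.11, limma adjusted p = 0.0519), and it passed with quantile normalization (0.0444), when the probe sets of every gene were averaged (0.0480) and on omission of wild-type array 2 (0.0402) or Bmal1-/- array 5 (0.0314). Rps20, a small subunit protein of the ribosome's head, read 4306.5, 3652.2 and 4195.6 against 3382.9, 3579.1 and 3205.6. Its difference was -0.25 (adjusted p = 0.0666), and its other tested probe set gave -0.27 (0.0555). It passed when the probe sets of every gene were averaged (0.0499). Rps10 (-0.26, adjusted p = 0.0679), Rps4x (-0.19, 0.0759), Rpl13a (-0.21, 0.0860) and Rpl38 (-0.16, 0.0950) followed, each with no overlap between genotypes. Rps10 had 4 other tested probe sets, at -0.05, -0.02, 0.0049 and 0.50. The other tested sets of Rpl13a gave -0.04, 0.10 and 0.06, each with overlap.

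On the higher side, no member passed. Rps4l, an autosomal relative of Rps4x, read 228.8, 281.5 and 311.8 in wild type and 346.1, 418.4 and 305.8 in Bmal1-/-, with overlap (log2 difference 0.36, SE 0.13, adjusted p = 0.127). Its X-linked counterpart Rps4x, at 5694.1, 5273.3 and 5687.5 against 4917, 4935.4 and 4694.2, pointed the other way without passing either. Rps9, which lies by the channel where mRNA enters the small subunit, read 2623.3, 2971.9 and 2645.8 against 3112.4, 3217.1 and 3094.8 without overlap (0.19, adjusted p = 0.108), and its other tested set gave -0.35 (0.145). Rps19, the gene most often altered in Diamond-Blackfan anaemia, read 1556.4, 1489.2 and 1414.2 against 1591.9, 1740.1 and 1626 (0.15, adjusted p = 0.226). Rpl14 (0.31) and Rps27 (0.28) were dim, with SEs of 0.15 and 0.24.

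Rpl41 and Rpl22 showed how much wild-type array 2 weighed. Rpl41, which encodes the shortest ribosomal protein, read 4719.9, 7468.6 and 4613.9 in wild type and 6682.4, 7335 and 6819.2 in Bmal1-/-. Array 2 lay above every Bmal1-/- array and the other 2 below. Rpl22, a large subunit protein that cells can lack, had the same pattern at 560.4, 870.2 and 514.3 against 742.6, 758.2 and 646.4. With all arrays, their log2 differences were 0.35 (adjusted p = 0.183) and 0.17 (0.567). Without wild-type replicate 2 they were 0.57 (0.00046) and 0.40 (0.0261). That omission raised the number of members past the threshold from 2 to 10, with 7 lower (Rpl11, Rpl13a, Rpl37, Rpl37a, Rps20, Rps29 and Rps4x) and 3 higher (Rpl22, Rpl41 and Rps9), when 6.88% of all genes passed. With all 6 arrays, the remaining Rpl41 sets gave 0.07, 0.31 (SE 0.23) and -0.05, and the other Rpl22 set -0.19, none past the threshold.

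Among members known for a role of their own, 4 had genotypes that overlapped. Of the stalk that recruits translation factors, Rplp0 read 4147.5, 3576.8 and 4202.2 against 3414.4, 3816.9 and 3879.6 (log2 difference -0.10, 95% interval -0.27 to 0.07), and Rplp2 had 0.03 (-0.09 to 0.16). Rps6, the small subunit protein phosphorylated by the S6 kinases downstream of mTOR, read 379.4, 369.5 and 371.7 against 360.5, 390.5 and 391.4 (0.03, interval -0.15 to 0.20). Rpsa, which also serves as a laminin receptor, had -0.07 (-0.23 to 0.10).

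Paralogues were tested where both were measured. Rpl22l1, which can take the place of Rpl22 in the ribosome, had a log2 difference of -0.10 (SE 0.07) beside 0.17 (SE 0.15) for Rpl22. Rps27l, a p53-induced relative of Rps27, had -0.14 (SE 0.07), with its other sets at -0.02 and -0.08, and Rps27 had 0.28 (SE 0.24). Rpl7l1, a relative of Rpl7, had 0.03 (SE 0.13) and Rpl7 -0.08 (SE 0.06). None of these 6 passed the threshold. Rpl39, a small protein of the exit tunnel whose relative Rpl39l was too dim to test, was itself dim, with an interval of -0.62 to 0.63 that leaves its direction unknown.

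The members' promoters were read for motifs because BMAL1 binds the E-box, CACGTG, which reads the same on both strands. RefSeq (GRCm38.p6) gave windows of 250 bases before to 50 after the annotated start for 42 of the 48 members, 50 windows in all, some overlapping. An E-box stood in 5 windows (10%) of 4 genes, Rpl13a, Rpl14, Rpl19 and Rps19, against 7.15% of 32851 windows in the table and 10.2% of the 8588 windows of tested genes. None of the 4 passed the threshold, with log2 differences from -0.21 to 0.31. The stretches that hold the E-box upstream of the start are shown for 3 of them, with the E-box in capitals, at chr11:98026650-98026709 (plus strand), chr7:45128913-45128972 (minus strand) and chr9:120571322-120571381 (plus strand).
Rpl19: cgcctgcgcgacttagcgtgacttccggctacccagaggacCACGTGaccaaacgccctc
Rpl13a: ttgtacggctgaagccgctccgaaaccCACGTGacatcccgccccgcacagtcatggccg
Rpl14: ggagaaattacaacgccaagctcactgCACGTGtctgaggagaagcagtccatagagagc
The E-box of Rpl19 begins 19 bases before 1 of its annotated starts, those of Rpl14 and Rpl13a 168 and 200 bases before it. Rpl19, a large subunit protein, read 3944.7, 3809.5 and 3872.3 in wild type and 3874.2, 3871.6 and 3409.4 in Bmal1-/- (log2 difference -0.06, 95% interval -0.20 to 0.08). Its genotypes overlapped, and 5 of its 6 arrays lay within a narrow band.

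Another motif was frequent in the members' promoters. CCGGAAG or its reverse CTTCCGG, a form of the site bound by ETS factors such as GABP, stood in 21 windows (42%), against 8.86% of all windows and 18% of those of tested genes. Shorter or other forms of that site were not searched. Of the 20 tested genes with it, Rpl37 alone passed, and 13 were below 0, with a median of -0.06. CTTTC on the sense strand within 25 bases of the start, a form of the pyrimidine tract, stood in 12 windows (24%) against 6.75% and 5.17%, and of its 11 tested genes none passed and 7 were below 0. Of all 46 tested members 30 were below 0, with a median of -0.07, so both shares below 0 were near that of the members as a whole. Over all tested genes 5.68% passed. The motifs are matches of letters, not measured sites. The 100 bases before the start are shown for both genes that fell, at chr15:5116513-5116612 and chr1:72711160-72711259 (both plus strand), with CCGGAAG in capitals.
Rpl37: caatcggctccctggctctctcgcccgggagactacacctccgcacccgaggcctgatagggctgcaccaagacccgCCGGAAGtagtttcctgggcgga
Rpl37a: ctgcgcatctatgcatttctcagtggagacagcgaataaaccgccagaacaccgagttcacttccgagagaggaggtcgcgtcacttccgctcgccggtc
Rpl37 has CCGGAAG 23 bases before its start and again, as CTTCCGG, 35 bases after it. Rpl37a has neither in its window, though its stretch holds the shorter CTTCCG. The members lie on 17 chromosomes, and of them Rpl27a and Rps3 lie within 20 Mb of Arntl. Neither of those 2 passed, at log2 differences of -0.13 and -0.03.

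Genes that make, regulate or work beside the ribosome were counted in the same fit. Over 7 lists, which share a few genes, 212 different genes other than the members were tested and 10 passed (4.72%), 7 higher and 3 lower, against 5.68% of all tested genes. Fau, which encodes a ubiquitin-like protein fused to a small subunit protein, was the only measured ribosome constituent outside the naming rule and had a log2 difference of 0.06 (adjusted p = 0.656). Of the 10 that passed, Mycn, Phlda3 and Eif3c also did so without the intensity trend, and these 3 and Mrpl13 with no filter on low values. The calls of Fbl, Polr1d, Eif4g3, Hnrnpa1, Ddit4 and Mrpl34 were lost in both settings (adjusted p 0.0561 to 0.114), and that of Mrpl13 without the trend (0.0676). Averaging probe sets ended the calls of Fbl (0.0637), Polr1d (0.0891), Eif3c (0.0851) and Hnrnpa1 (0.128).

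Of 58 ribosome assembly and nucleolar factors, 2 rose and none fell, with a median of -0.05. Fbl, the methyltransferase fibrillarin that modifies ribosomal RNA, read 197.2, 298.6 and 191.6 in wild type and 390.6, 346.9 and 370.4 in Bmal1-/- (log2 difference 0.68, SE 0.14, adjusted p = 0.0171). On the gene's brightest set without the suffix _x_at or _s_at it was 0.04 (0.910). Polr1d, a subunit shared by RNA polymerases I and III, read 302.8, 360.7 and 298.6 against 408.2, 452.1 and 438.5 (0.42, adjusted p = 0.0239). In both genes array 2 was the highest wild-type array, and both calls ended on omission of wild-type array 1, wild-type array 3 or Bmal1-/- array 6 (Fbl 0.0517 to 0.0783, Polr1d 0.0770 to 0.0937), as did that of Fbl without array 4 (0.0631) and that of Polr1d without array 5 (0.0952).

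Translation initiation factors numbered 31, with 2 rising, none falling and a median of 0.07. Eif3c, a subunit of the scaffold that loads mRNA onto the small subunit, read 461.9, 553 and 478.7 against 715.7, 689.3 and 739.7 (log2 difference 0.51, SE 0.08, adjusted p = 0.00470), but 0.21 (0.143) on its brightest set without those suffixes. Eif4g3, a cap-binding complex scaffold, rose by 0.44 (SE 0.11, adjusted p = 0.0365). Its call held without wild-type array 2 (0.0297) and was lost on omission of any of the other 5 (0.0691 to 0.130). Of the 16 other mRNAs known for a terminal oligopyrimidine tract, 1 fell, Hnrnpa1, which encodes an RNA-binding splicing protein (-0.48, SE 0.11, adjusted p = 0.0325), and the list's median was 0.0034. Hnrnpa1 gave -0.09 (0.697) without those suffixes, and its call ended on omission of array 1, 3, 5 or 6 (0.0570 to 0.109).

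Of 25 genes of the mTOR pathway and of translation control, 1 rose and 1 fell. Mycn, a MYC-family transcription factor that activates ribosome assembly genes, read 73.9, 74.9 and 67.1 in wild type and 167.9, 150.6 and 140 in Bmal1-/-, without overlap (log2 difference 0.94, SE 0.11, adjusted p = 0.000664). It passed under every alternative tried, with adjusted p up to 0.00544. Ddit4, an inhibitor of mTOR signalling, fell from 250 ± 101 to 114 ± 44.3 (-1.02, SE 0.25, adjusted p = 0.0355), a call that ended on omission of array 1, 3, 4 or 6 (0.0759 to 0.129) and with robust eBayes (0.109). Mtor and Larp1 had differences of -0.09 and -0.02 and did not pass, nor did the 2 ribosomal S6 kinase genes bright enough to be tested, Rps6ka3 (0.03) and Rps6kb2 (-0.16).

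Of 16 p53 pathway genes, Rps27l among them, 1 fell, Phlda3, an inhibitor of AKT, which read 75.6, 82.3 and 85.2 against 29.8, 44.2 and 43.2 (log2 difference -0.83, SE 0.14, adjusted p = 0.00648). The list's median was -0.0064. The mitochondrial ribosomal proteins, a separate set encoded in the nucleus for the ribosomes of mitochondria, had a median of 0.08 over 73 genes, with 27 below 0. That is the opposite side of 0 from the cytosolic set, though no test of the difference was made and 2.74% of them passed. The contrast holds for the values without further scaling. After quantile normalization 23 of the 46 cytosolic genes were below 0, and no such value is given for the mitochondrial set. The 2 that rose were Mrpl13 (0.41, SE 0.08, adjusted p = 0.0169) and Mrpl34 (0.49, SE 0.12, adjusted p = 0.0394). Mrpl13 gave -0.036 (0.904) when its probe sets were averaged. Its call ended on omission of array 3 (0.0659) or 4 (0.0698), and that of Mrpl34 on omission of array 1, 3, 4 or 5 (0.0903 to 0.151).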

How the data were processed

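The deposited table holds 1 linear intensity per probe set and array, made by the authors with MAS5, per the submitters' processing notes. The sources used here give no version, scaling target or detection calls. The mean after trimming 2% at each end was 100.04 on all arrays. MAS5 subtracts a mismatch signal, so dim values are noisy.

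Control probe sets (64) were left out. Values were taken as log2(intensity + 16), and differences on this scale understate those of dim genes. The 60% brightest of 22626 probe sets, 13576 in all, were fitted with limma 3.58.1 in R 4.3.3 (lmFit, then eBayes with its trend option; two-sided p, Benjamini-Hochberg over all of them, threshold 0.05). No further scaling was applied. In a simulation of this comparison on 13576 probe sets, 1.6% of changes of 0.25 and 23.2% of changes of 0.5 on the log2 scale were recovered. For changes of 1 and 2 it was 83.6% and 98.8%, and 5.13% of calls were false. The changed sets were drawn at random from all tested ones. The median SE was 0.13 over all tested genes and 0.07 over the members, so these rates are not those of the members.

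Like brightness means between the 10th and 90th percentile of the members. The members, lists and tests were chosen with earlier results of these data known. Named are members past the threshold, the 6 highest and 6 lowest, paralogue pairs, stalk proteins, a few well-known members and up to 3 genes per list. Others named were chosen after their values were seen. Entrez IDs of all 48 members matched RefSeq.

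Alternatives were pseudocounts of 1 and 64, quantile normalization, cyclic loess, equal medians, no filter, the 40% brightest probe sets, eBayes without trend or robust, array weights, averaged probe sets, no _x_at or _s_at sets, and each array left out.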

Additional observations from a re-analysis of the deposited data

How the results depend on the processing

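The count of ribosomal protein genes past the threshold, 2, stood at 2 or 3 under equal array medians, either other pseudocount, the 40% brightest probe sets, array weights and averaged probe sets. It was 0 with no filter on low values, 0 without the intensity trend and 0 without sets ending in _x_at or _s_at, and 1 with cyclic loess, 1 with quantile normalization and 1 with robust eBayes. Leaving out 1 array gave 0 to 10. Their median log2 difference was -0.025 with cyclic loess, -0.037 without the _x_at and _s_at sets and -4.23e-05 with quantile normalization. Relative to genes of like brightness it was -0.08, and -0.029, -0.047 and -0.012 in those 3 settings in turn. Against other genes over an intensity of 1000, a comparison chosen after seeing the data, it was -0.07. The 10 genes past the threshold in the 7 other lists became 4 with no filter and 3 without the trend, and 4 to 15 with 1 array left out. Averaging a gene's probe sets turned Rpl37a to 0.15 and Mrpl13 to -0.036. Of 606 values of named genes under the alternatives, 526 kept their side of the threshold. Each omission also has fewer arrays, and otherwise the cause was not tested. No paired analysis was possible because the labels give the genotypes no shared replicate numbers. The number of arrays limits the precision.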
